A study of Mus musculus with 6 samples.

Results

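This section describes 10 mouse genes that write, keep, erase or act with DNA methylation, measured as mRNA in pachytene spermatocytes. They were chosen by name: the DNA methyltransferase genes Dnmt1, Dnmt3a and Dnmt3b, the cofactor genes Dnmt3l and Uhrf1, the dioxygenase genes Tet1, Tet2 and Tet3, and the silencing partners Setdb1 and Trim28. All 10 were found among the 21310 genes of the deposited count table. The study compared pachytene spermatocytes, germ cells in the long middle stage of meiotic prophase, from testes of wild-type (WT) mice and of Alkbh1-/- mice (the mutant below), whose Alkbh1 gene lacks exon 6 and whose heterozygous forebears had been backcrossed to C57/BL6. One mRNA library was made for each genotype, by oligo(dT) selection of RNA over 200 nt, from 1 µg of WT RNA and 1.6 µg of Alkbh1-/- RNA. The labels give neither the age nor the number of animals behind a library, and no strain for WT. The small RNA libraries of the series, which also cover a Tzfp gene trap, measure piRNA clusters and were not used here.

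DNA methylation in mammals is the methyl mark on cytosine, mostly where a cytosine is followed by a guanine (CpG). Maintenance enzymes copy the mark onto the new strand after replication, de novo enzymes set it on unmarked DNA, and the TET dioxygenases oxidise it as a step towards removal. In the male germ line the mark is largely set in the fetal testis, before meiosis, where it silences retrotransposons and establishes paternal imprints. Alkbh1, the gene deleted here, encodes an AlkB protein of the same iron- and 2-oxoglutarate-dependent dioxygenase superfamily as the TET enzymes.

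Total counts were 8222671 for WT and 10229260 for Alkbh1-/-. Levels are given as CPM, counts relative to the library total, after TMM scaling, so that 1 CPM stood for 8.14 reads in WT and 10.3 in Alkbh1-/-. With 1 library per genotype there was no replicate error and no test: each ratio compares these libraries, and the 95% exact interval beside it covers counting error only. A gene entered the counts below at 5 CPM or more in either library, and was called at a difference of at least 1.5-fold on the scale log2(CPM + 1), which understates the ratio of low genes. Of 12189 genes past that floor, 8.06% lay at least 1.5-fold above their WT level in the mutant and 8.79% at least 1.5-fold below it. For 50.4% of them the counting interval of the ratio excluded 1, so an interval that excludes 1 was common between these libraries. Alkbh1 had 21.0 CPM in the WT library and 20.2 in the mutant, a count over the whole gene that does not check the loss of 1 exon.

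Most of the methylation genes had similar levels in both libraries. Of the 10, 8 passed the floor; 1 of them was at least 1.5-fold higher in the mutant (background 8.06%) and 0 were at least 1.5-fold lower (background 8.79%). The one called was Dnmt3l. Their median log2 ratio was -0.06, beside -0.02 for all genes over the floor, and 7 of the 8 lay within 1.5-fold (87.5%, beside 83.2% of all genes). The counting interval excluded 1 for 4 of the 8, close to the 50.4% of all genes. Tet1 and Tet3 were under the floor in both libraries.

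**Figure D1:**
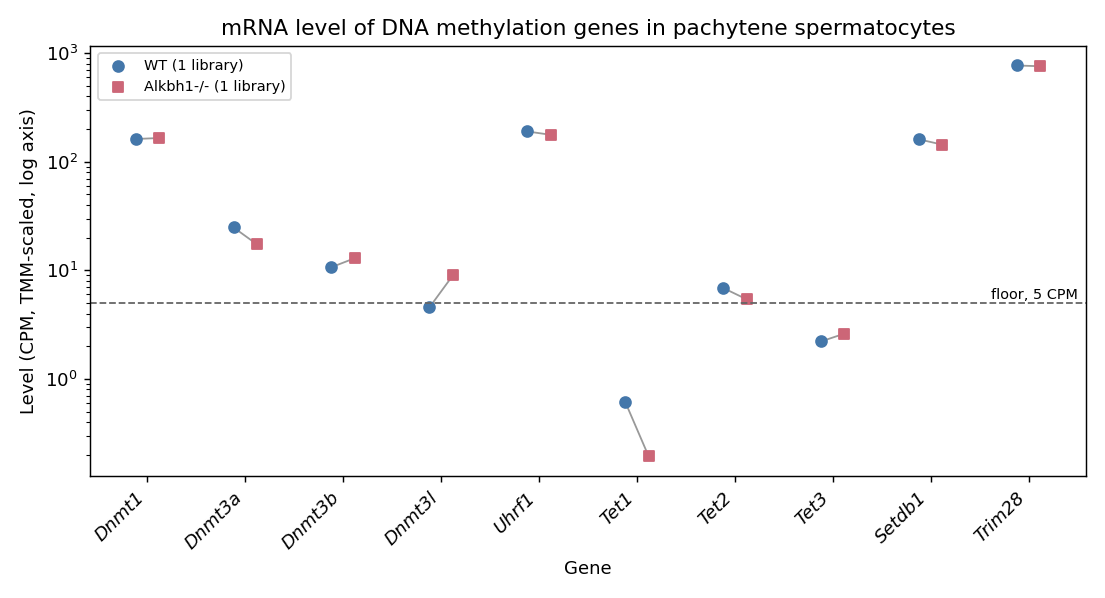
Level of each of the 10 genes (CPM, TMM-scaled, log axis) in the WT library (circles) and the Alkbh1-/- library (squares), 1 library each, with a dashed line at the floor of 5 CPM. Dnmt3l is the gene that crosses the floor, from 4.55 CPM in WT to 8.995 CPM in the mutant, while Dnmt1, Uhrf1, Setdb1 and Trim28 stay nearly level. Levels are not corrected for gene length, so heights are comparable within a gene and not between genes.

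The maintenance pair was nearly equal in the libraries. Dnmt1, the methyltransferase that copies the mark at replication, had 1320 counts (162 CPM) in WT and 1712 counts (166 CPM) in the mutant. The ratio was 1.02 (interval 0.949 to 1.10). Uhrf1, which binds hemimethylated DNA and brings Dnmt1 to it, had 1549 counts (190 CPM) in WT and 1833 counts (177 CPM) in the mutant. Its ratio was 0.931 (interval 0.870 to 0.997), lower in Alkbh1-/- by a few percent. Among all genes over the floor, 55.9% had a lower log2 ratio than Dnmt1 and 38.4% a lower one than Uhrf1, so both lay in the middle of the distribution. Dnmt1 is known for alternative first exons in germ cells, among them a pachytene form that is poorly translated. RefSeq gives it 3 start sites (GRCm38), and a count over the whole gene sums transcripts from all of them.

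Among the genes over the floor, the de novo group held the widest differences, in opposite directions. Dnmt3l has no methyltransferase activity of its own; its protein binds Dnmt3a and Dnmt3b and stimulates them. It had 37 counts (4.55 CPM) in WT and 93 counts (8.995 CPM) in the mutant. The Alkbh1-/- library was thus 1.98-fold higher (interval 1.34 to 2.98), or 0.85 on the log2(CPM + 1) scale. Of all genes over the floor 96.7% had a lower ratio. Low genes vary more than high ones, however: of the 3275 genes whose mean CPM lay within 2-fold of that of Dnmt3l, 6.87% were at least as high in Alkbh1-/-. Dnmt3l passed the floor through the Alkbh1-/- library alone, and with a pseudocount of 5 its log2 ratio was 0.55, under the 1.5-fold line.

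Dnmt3a, the main de novo methyltransferase of male germ cells before birth, lay on the other side. It had 202 counts (24.8 CPM) in WT and 179 counts (17.3 CPM) in the mutant, 1.43-fold lower (interval 1.17 to 1.76). Its log2 ratio of -0.50 did not reach the 1.5-fold line, and 11.0% of genes over the floor were lower. Of the 4549 genes with a mean CPM within 2-fold of that of Dnmt3a, 13.5% were at least as low. RefSeq places the noncoding genes Dnmt3aos and Gm31623 over Dnmt3a; no source used here gives strand use in counting, so reads of overlapping genes cannot be told apart. Pseudogene copies named Dnmt3a-ps1 and Dnmt3l-ps1 were not analysed here and could share reads with their parent genes.

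The ratio of genes within a library needs no scaling, and gene length cancels when it is compared between libraries. Dnmt3l had 0.183 counts per Dnmt3a count in WT and 0.520 in Alkbh1-/-, a 2.83-fold change (interval 1.81 to 4.49). Dnmt3l was also higher in Alkbh1-/- relative to Tet2 (2.50-fold, interval 1.43 to 4.43), Setdb1 (2.22-fold, 1.49 to 3.36), Uhrf1 (2.12-fold, 1.43 to 3.22), Trim28 (2.01-fold, 1.36 to 3.03) and Dnmt1 (1.94-fold, 1.301 to 2.94). Relative to Dnmt3b the change was 1.63-fold (interval 1.00 to 2.69). Of 28 pairs among the 8 genes, the counting interval excluded 1 in 14. Such intervals were also common for single genes (50.4% of all genes). Each gene is in 7 pairs, and the interval excluded 1 in 6 of those with Dnmt3l and 6 of those with Dnmt3a. Together these made up 11 of the 14, and 3 pairs involved neither gene. Dnmt3l passed the floor through the Alkbh1-/- library alone. Dnmt3l and Dnmt3a were picked out here after their ratios were seen, so these counts are a description.

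Dnmt3b, the second de novo methyltransferase, cannot be read alone. It had 87 counts (10.7 CPM) in WT and 134 counts (13.0 CPM) in the mutant, a ratio of 1.21 (interval 0.919 to 1.61). Dnmt3c, a rodent duplicate of Dnmt3b that methylates young retrotransposons in male germ cells, went the other way: 76 counts (9.34 CPM) in WT and 28 counts (2.71 CPM) in the mutant, 3.45-fold lower (interval 2.21 to 5.53). Dnmt3c is not among the 10 genes, was added after its values were seen, and passed the floor through WT alone. The duplicates resemble each other in sequence, and no source used here says how reads that match both were counted. Summed, they had 163 counts in WT and 162 in Alkbh1-/-, or 20.04 and 15.7 CPM, a ratio of 0.782 (interval 0.625 to 0.978). The Dnmt3b ratio, whose interval includes 1, and the ratio of the sum thus lie on opposite sides of 1, and whether reads were divided differently in the libraries was not tested.

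**Figure D2:**
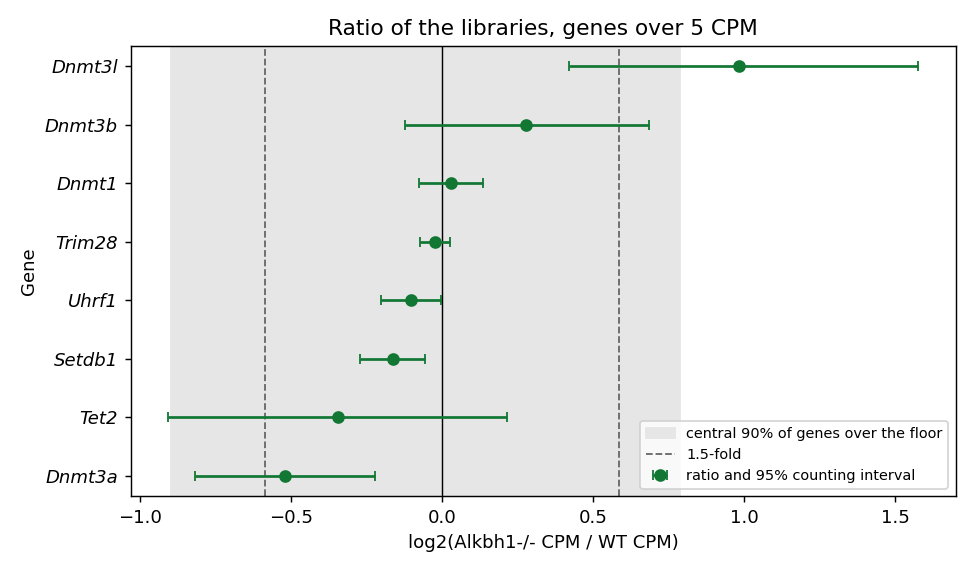
Ratio of the Alkbh1-/- to the WT library (log2, no pseudocount) for the 8 genes over 5 CPM, with the 95% exact counting interval; the grey band holds the central 90% of genes over the floor and dashed lines mark 1.5-fold. Dnmt3l lies to the right of the band's edge with an interval of 1.34 to 2.98 on the linear scale, Dnmt3a lies furthest left inside the band, and Dnmt1 and Trim28 sit near 0.

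The sequences just before the Dnmt3l start sites are shown because this gene was the one called and because a gene-level count adds transcripts from every start; germ cells are known to use different Dnmt3l promoters at different stages, and some late transcripts make no protein. RefSeq (GRCm38.p6) gives 3 starts, all on the + strand of chromosome 10, and the 250 bases before each are chr10:78042037-78042286, chr10:78049592-78049841 and chr10:78055085-78055334. RefSeq overlaps Dnmt3l with Aire, a transcription regulator gene, which had 7 counts in WT and 11 in Alkbh1-/-. The 250 bases before the first RefSeq start of Dnmt3a (chr12:3806730-3806979, + strand) are given for contrast. Capitals mark CG, which reads the same on both strands.
Dnmt3l start 1: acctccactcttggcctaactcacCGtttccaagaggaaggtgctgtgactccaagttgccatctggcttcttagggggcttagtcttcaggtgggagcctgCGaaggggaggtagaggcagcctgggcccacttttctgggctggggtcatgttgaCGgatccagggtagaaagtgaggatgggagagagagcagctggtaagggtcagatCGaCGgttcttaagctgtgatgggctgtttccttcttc
Dnmt3l start 2: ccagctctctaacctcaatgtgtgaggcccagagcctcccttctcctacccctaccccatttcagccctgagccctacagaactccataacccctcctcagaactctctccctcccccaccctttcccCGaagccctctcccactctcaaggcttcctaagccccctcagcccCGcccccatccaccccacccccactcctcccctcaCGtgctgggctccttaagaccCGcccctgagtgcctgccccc
Dnmt3l start 3: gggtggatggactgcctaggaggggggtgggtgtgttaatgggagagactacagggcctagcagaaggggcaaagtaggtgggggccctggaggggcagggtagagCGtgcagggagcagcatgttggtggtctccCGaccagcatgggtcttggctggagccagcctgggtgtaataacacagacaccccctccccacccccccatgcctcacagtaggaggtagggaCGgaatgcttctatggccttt
Dnmt3a start 1: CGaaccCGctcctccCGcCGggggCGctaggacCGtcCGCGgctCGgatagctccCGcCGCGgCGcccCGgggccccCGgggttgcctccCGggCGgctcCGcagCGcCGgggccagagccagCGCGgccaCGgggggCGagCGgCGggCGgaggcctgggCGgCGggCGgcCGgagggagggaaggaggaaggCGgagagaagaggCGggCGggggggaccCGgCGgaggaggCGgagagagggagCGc

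The Dnmt3l windows have fewer CpG than the median window and the first Dnmt3a window has many more. They hold 5, 4 and 3 CG at the Dnmt3l starts and 38 at the first Dnmt3a start; the other Dnmt3a windows, not shown, hold 40 and 15. Of the 32851 RefSeq windows of 250 bases, 55.6%, 62.2% and 71.0% held at least as many CG as the Dnmt3l windows, and 1.88% at least as many as the Dnmt3a window. Over all windows the lower quartile was 2 and the median 6. Dnmt3l was the only one of the 10 genes whose windows all lay under that median; 7 of the 10 had at least 1 window at or above the upper quartile of 16, led by Tet2 with 51. Which starts were used in these cells was not tested.

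The TET genes, whose enzymes oxidise the methyl mark, had few reads. Tet2 had 56 counts in each library, which after scaling was 6.88 CPM in WT and 5.42 CPM in the mutant (ratio 0.787, interval 0.534 to 1.16). Tet3 had 18 counts (2.21 CPM) in WT and 27 counts (2.61 CPM) in the mutant, a ratio of 1.18 (interval 0.627 to 2.28). Tet1 had 5 counts (0.615 CPM) in WT and 2 counts (0.193 CPM) in the mutant, a ratio of 0.315 with an interval of 0.0300 to 1.92. All 3 intervals included 1, and for Tet1, with a handful of reads, a difference was not detectable at this depth.

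The silencing partners had many reads and were nearly equal in the libraries. Trim28 encodes the scaffold (KAP1) that zinc finger proteins recruit to retrotransposons and imprinted regions. It had 6279 counts (772 CPM) in WT and 7850 counts (759 CPM) in the mutant, a ratio of 0.984 (interval 0.952 to 1.02), the narrowest interval of the 10. Setdb1, the histone H3 lysine 9 methyltransferase that acts with Trim28, had 1311 counts (161 CPM) in WT and 1487 counts (144 CPM) in the mutant, a ratio of 0.893 (interval 0.828 to 0.962). RefSeq overlaps Setdb1 with Cers2, a ceramide synthase gene, which had 35.6 CPM in WT and 25.1 CPM in the mutant; the part of shared reads in the Setdb1 value was not tested.

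**Figure D3:**
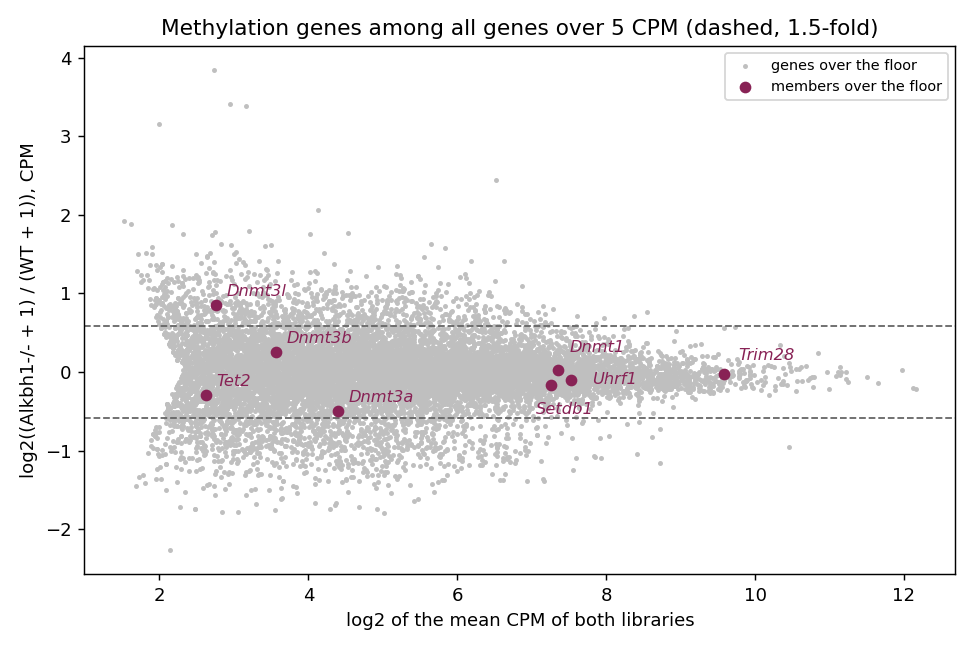
Log2 ratio of the libraries (CPM + 1) against the log2 of their mean CPM for the genes over 5 CPM that have a symbol (grey) and the 8 methylation genes over the floor (named), with dashed lines at 1.5-fold. Spread is wider at low levels, where Dnmt3l (0.85) and Tet2 (-0.30) lie, and narrow at the level of Trim28 (-0.02).

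The wider machinery was read from lists of genes that work with these 10, none of which repeats them. Over 4 lists, 73 of 88 genes passed the floor, and of the 73, 4 were at least 1.5-fold higher in the mutant (5.48%, background 8.06%) and 4 at least 1.5-fold lower (5.48%, background 8.79%), so calls were no more common than over all genes. Among readers and recruiters of the mark, 24 of 26 passed the floor, 3 were higher (12.5%), 2 were lower (8.33%) and the median log2 ratio was 0.03. With a pseudocount of 5 these counts were 1 and 1, and with a floor of 20 CPM they were 1 and 0. Morc1, a factor of retrotransposon silencing in male germ cells, had 5.78 CPM in WT and 11.2 CPM in the mutant (1.94-fold higher, interval 1.37 to 2.79). Zfp57, a zinc finger protein that protects imprints together with Trim28, had 11.1 and 18.2 CPM (1.64-fold higher, 1.27 to 2.14). Tex15 (0.61 on the log2 scale), which acts in piRNA-directed methylation, was also called higher, and Spocd1 (-0.61), which acts in the same pathway, was called lower. Usp7 and Mbd3, with the highest WT CPM of this list, had log2 ratios of 0.17 and -0.05.

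Of 20 genes of active demethylation and base excision repair, 12 passed the floor, 1 was higher and 1 lower (8.33% each, near the background; median -0.11). Cxxc5, a CXXC zinc finger protein, had 28.9 CPM in WT and 45.4 CPM in the mutant (0.63 on the log2 scale). Gadd45b, a stress response gene linked to demethylation, had 6.88 and 2.42 CPM (-1.21), and so passed the floor through WT alone. Gadd45g (-0.57) was just inside the line. Lig3 (-0.14), a DNA ligase, and Parp1 (-0.39), a poly(ADP-ribose) polymerase, had the most reads. Tdg, the glycosylase that removes the oxidised bases made by TET enzymes, was under the floor, with 31 counts (3.81 CPM) in WT and 51 counts (4.93 CPM) in the mutant.

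None of the 21 genes over the floor (of 22) for histone H3 lysine 9 methylation and heterochromatin reached 1.5-fold in either direction (median -0.05). The background was 8.06% higher and 8.79% lower. The furthest were Pphln1 (0.51) and Atrx (-0.50), followed by the testis-enriched methyltransferase Suv39h2 (0.47), while Chd4 and Ehmt2 had -0.14 and -0.10. Of 20 genes that supply the methyl donor or 2-oxoglutarate, 16 passed the floor (median -0.08). Of the 16, 0 were higher and 1 was lower (6.25%, near the background). That one was Mthfd1, an enzyme of folate metabolism, with 14.3 CPM in WT and 8.80 CPM in the mutant (-0.64). Idh1 (-0.57), an isocitrate dehydrogenase, followed, and Ahcyl2 had 139 CPM in both libraries.

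Germline genes whose promoters are kept silent by DNA methylation in other tissues were more often above 0 than below it: 14 of the 19 over the floor had a log2 ratio above 0, beside 5837 of all 12189 genes. Of 20, 19 passed the floor, with a median log2 ratio of 0.21. Of these, 3 were at least 1.5-fold higher (15.8%, background 8.06%) and 0 at least 1.5-fold lower (background 8.79%). The 3 were Taf7l (0.71), a germ cell TFIID subunit, Mov10l1 (0.63), the piRNA helicase, and Sohlh2 (0.62), a spermatogonial transcription factor. Mael and Ddx4, with the highest WT CPM of this list, had -0.13 and 0.12. Over the alternatives the number higher lay between 2 (pseudocount of 5, or floor of 20 CPM) and 5 (scaling by library totals or by the upper quartile). The list shares 4 names with the pachytene marker list. Having more genes above 0 than below it was not particular to this list. Among markers over the floor, 14 of 17 for spermatids, 6 of 11 for spermatogonia and 12 of 22 for pachytene spermatocytes lay above 0. Of 24 Sertoli cell markers, 1 did.

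Markers of other testis cells differed between these preparations. The background for the counts below, over all genes past the floor, was 8.06% higher in the mutant and 8.79% lower. Of 22 pachytene spermatocyte markers over the floor, 2 (Spag6 and Msh4) were at least 1.5-fold higher in the mutant and 0 lower. The 2 made up 9.09%, near the background. The 22 had a median log2 ratio of 0.03 and a summed level of 15917 CPM in WT and 15027 CPM in the mutant. All 24 Sertoli cell markers found had reads in both libraries. Of them, 21 were lower (87.5%) and 0 higher, with a median log2 ratio of -1.10. Their summed level was 4852 CPM in WT and 2425 CPM in the mutant. Of 17 spermatid markers 10 were higher (58.8%) and 0 lower (summed level 2114 and 2775 CPM). Of 11 spermatogonial markers over the floor, 2 were higher (18.2%), Kit (1.02) among them. Etv5 (-0.98) was the 1 lower (9.09%, near the background), and the median was 0.18. The summed level of the spermatogonial markers, 1251 and 1134 CPM, was mostly Dmrtb1 (1041 and 938 CPM). Leydig cell markers had 6 of 11 higher (54.5%) and 1 lower (9.09%), with summed levels of 327 and 361 CPM. Of the 6 higher, 2 (Hsd17b3 and Scp2) passed the floor through the Alkbh1-/- library alone. The 1 lower was Nr5a1 (-1.12), which is also on the Sertoli cell list. Dmrt1 is on both the spermatogonial and the Sertoli cell list. Peritubular myoid markers had 2 of 6 higher (33.3%) and 1 lower (16.7%), with 202 CPM in both libraries. Only 2 of 11 blood and endothelial markers passed the floor, Tek (1.19) and Cdh5 (-0.75), and the 11 summed to 19.2 and 22.1 CPM, with Hba-a1 at 0 in WT. Tek, Cdh5 and the myoid genes Acta2 and Myh11 passed the floor through 1 library alone. So did the Leydig cell genes Hsd17b3 and Scp2 and the Sertoli cell gene Amh. The calls of all these genes were largely set by the filter. Summed levels are over all markers found, those under the floor included. In bulk RNA, fewer cells of a type and less RNA per cell cannot be told apart. The part of these markers in the values of Dnmt3l, Dnmt3a or the other genes was not tested, and with 1 library each, genotype cannot be told apart from preparation.

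**Figure D4:**
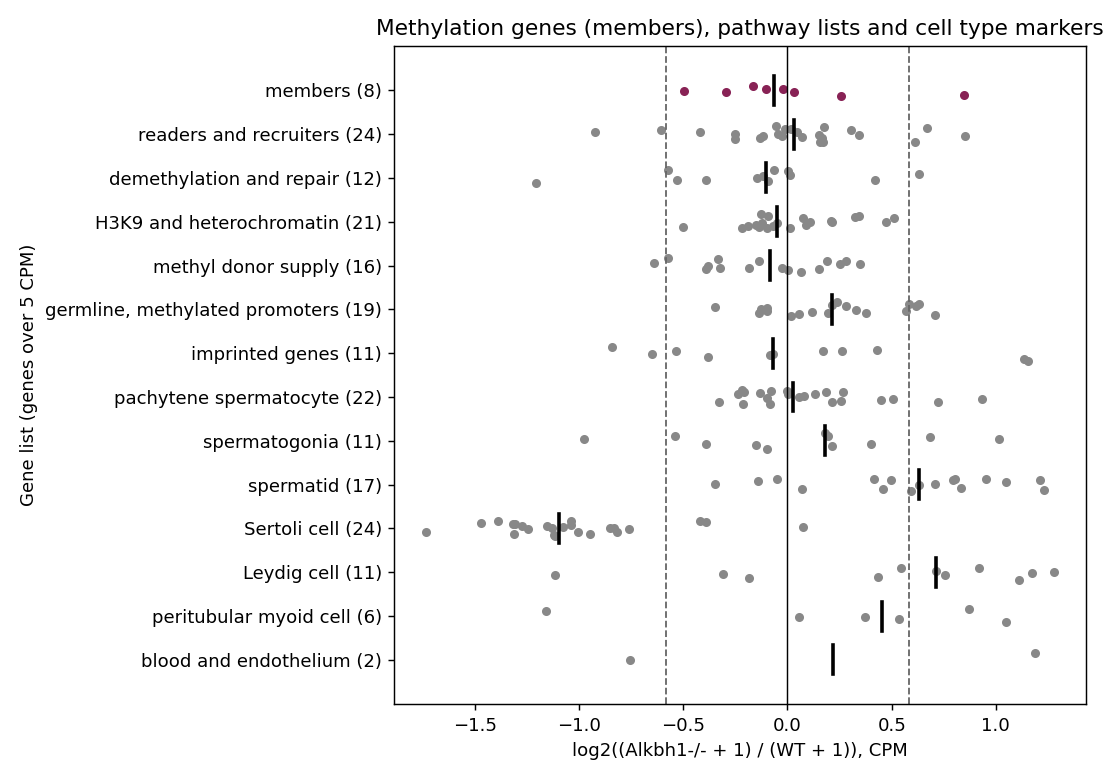
Log2 ratio of the libraries (CPM + 1) for each gene over 5 CPM in the 10 methylation genes (members), the pathway lists and the cell type marker lists, with the number of genes in brackets, a black bar at each median and dashed lines at 1.5-fold. The methylation genes (median -0.06) and the H3K9 list (median -0.05) lie near 0, and the Sertoli cell list (median -1.10) lies apart on the lower side.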

How the data were processed

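The authors deposited a table of whole-number read counts per Ensembl gene for 1 WT and 1 Alkbh1-/- library. The submitters' processing notes name CASAVA 1.3, Novoalign, TopHat, bedtools and the mm9 build without their roles; the sources used here give no annotation, counting settings or strand use. Per the labels' protocols, libraries had 15 PCR cycles and were read as 75 bp paired ends. Symbols were matched for 19848 of 21310 identifiers (93.1%).

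Counts were scaled by TMM (edgeR 4.0.16, R 4.3.3) to CPM, and log2((Alkbh1-/- + 1)/(WT + 1)) was taken. Intervals are exact (Clopper-Pearson, 95%) for ratios and exact conditional for ratios within a library. PCR copies are not independent molecules, so both cover counting error only. There was no test. The calculation was tested on simulated data. Alternatives used DESeq2 1.42.0 size factors, library totals, the upper quartile, pachytene centring, pseudocounts of 0.25 and 5, and floors of 1 and 20 CPM or none. Scripts ran in Python 3.11.15 with scipy 1.17.1, numpy 2.4.6, pandas 2.3.3 and matplotlib 3.10.9.

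The genes and lists were chosen with earlier results of these data known. The naming rule took all 10 genes and, from each list, those with the largest ratios and the highest WT levels. Tex15, Spocd1, Tdg, Dnmt3c, Aire, Cers2, Hba-a1, Myh11 and Impact were named after their values were seen, and some genes the rule takes are not reported here. Without gene lengths, a higher CPM of one gene than of another means more reads and not more transcripts. Promoter windows came from RefSeq (GRCm38.p6) and were not joined to mm9 positions.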

Additional observations from a re-analysis of the deposited data

How the results depend on the processing

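Scaling moved the genes little. Across the 4 other scalings the log2 ratio lay between -0.52 and -0.47 for Dnmt3a and between 0.82 and 0.88 for Dnmt3l. For Trim28 it lay between -0.05 and 0.01, and its sign changed. The pseudocount moved Dnmt3l more, to 0.55 with a pseudocount of 5 and 0.95 with 0.25. Dnmt3a had -0.42 and -0.51 with these pseudocounts. The median of the 8 genes lay between -0.09 and -0.03 over these scalings and pseudocounts. It was -0.10 over the genes above 20 CPM, -0.02 over those above 1 CPM and -0.06 over all 10. The number at least 1.5-fold higher was 1, but 0 with a pseudocount of 5 and 0 with a floor of 20 CPM, under which Dnmt3l has too low a level to be counted; the number at least 1.5-fold lower was 0 throughout. In an alternative added after seeing the data, Dnmt3b summed with Dnmt3c had a log2 ratio of -0.34 in place of 0.26. Of 232 counts of the other lists under the alternatives, 35 differed by more than 1.5 times from the reported count. Leaving out a replicate was not possible with 1 library per genotype. No paired analysis was possible because each genotype had 1 mRNA library. Depth limited Tet1, Tet3, Tet2 and Dnmt3l most.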

Other observations

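Imprinted genes, whose expression from 1 parental copy depends on DNA methylation, lay on both sides. Of 27, 19 were matched and 11 passed the floor; of these, 2 lay at least 1.5-fold higher in the mutant (background 8.06%) and 2 at least 1.5-fold lower (background 8.79%), with a median log2 ratio of -0.07. Of these 4, Igf2, Rasgrf1 and Impact passed the floor through 1 library alone, the one where each is high, so the counts support nothing about the list. Igf2, a growth factor, had 21 counts (2.58 CPM) in WT and 72 counts (6.96 CPM) in the mutant, 2.70-fold higher (interval 1.64 to 4.62). Rasgrf1, a guanine nucleotide exchange factor whose imprint in the male germ line is linked to piRNAs, had 26 counts (3.20 CPM) in WT and 85 counts (8.22 CPM) in the mutant, 2.57-fold higher (1.64 to 4.16). Gnas, a G protein subunit gene, had 147 CPM in WT and 81.8 CPM in the mutant (ratio 0.555, interval 0.508 to 0.607), and Impact had a log2 ratio of -0.65. Grb10, an adaptor protein, had 56.7 CPM in WT and 53.4 CPM in the mutant. Over the alternatives the number higher lay between 0 (floor of 20 CPM) and 4 (floor of 1 CPM or none), and the number lower between 1 and 3. These counts are not allele-specific, and methylation itself was not measured.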
